A study of Mus musculus with 192 samples.

Results

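Collagen genes were taken as the protein-coding genes whose mouse symbol is Col followed by a number, the letter a and a number, which gave 43 genes of 22350 protein-coding genes on the 19 autosomes and the X chromosome. They were divided by the structure their chains form into 11 fibrillar genes, 6 basement membrane (type IV) genes and 26 genes of other types. Col4a3bp, which encodes a ceramide transfer protein, begins with the same letters and was left out. The choice of genes used symbols alone and no measured value.

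The windows came from Pi-ATAC, which reads open chromatin in single index-sorted cells by transposase insertion. Cells of 4T1, a mouse breast cancer line, were mixed with splenocytes of a MMTV-PyMT mouse, in which a mammary tumour virus promoter drives a viral oncogene, and which had no tumour at that time. Fixed, permeabilized and transposed cells were stained for EpCAM, an epithelial surface protein, and CD45, a leukocyte surface protein, before sorting. By title, 96 cells were 4T1 and 96 were splenocytes, and by source name the numbers are 95 and 97. The 4T1 group is a single line, the splenocytes came from a single spleen, and the sources used here give no age for the mouse. The values below come from 1 list of 50000 accessible windows of 500 bp, called on aggregated cells, so they carry no replicate error, no test was run, and neither group can be given its own value. Whether the cells of both groups were aggregated is not settled by the sources.

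Collagens are triple-helical proteins of the extracellular matrix. Fibrillar chains assemble into the cables of skin, bone, tendon and cartilage and are made above all by fibroblasts, osteoblasts and chondrocytes. Type IV chains form the sheet-like network of basement membranes, on which epithelia and endothelia rest. The other types decorate fibrils, anchor basement membranes to the tissue beneath, form beaded filaments or span the plasma membrane. An accessible window marks DNA that the transposase could reach, as promoters and enhancers often are, and is not a measure of transcription.

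Stretches of 7 windows are printed here because they belong to genes with several promoter windows or the densest windows, Col7a1, Col25a1, Col18a1, Col1a1 and Col4a2, and to the promoter that Col4a1 and Col4a2 share, which was added after its values were seen. Col12a1 and Col8a1 also had several promoter windows, 3 and 2, and no stretch of theirs is printed. Each printed stretch is read 5′ to 3′ on the strand of its gene from mm9, and annotated exons were avoided. Capitals mark exact matches, on either strand, to TGACTCA (AP-1), GGAATGT (TEAD), CCAAT or GGGCGG (the GC box).
Col7a1, upstream of the outermost start (chr9:108855249-108855448): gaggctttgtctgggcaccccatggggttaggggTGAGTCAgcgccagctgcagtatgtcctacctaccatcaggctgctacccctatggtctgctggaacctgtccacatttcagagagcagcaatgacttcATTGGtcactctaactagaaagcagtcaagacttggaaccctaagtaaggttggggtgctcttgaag
Col7a1, intron (chr9:108859558-108859757): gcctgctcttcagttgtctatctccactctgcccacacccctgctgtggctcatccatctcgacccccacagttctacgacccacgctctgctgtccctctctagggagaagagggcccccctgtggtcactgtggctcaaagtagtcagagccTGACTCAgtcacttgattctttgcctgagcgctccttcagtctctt
Col18a1, upstream of the outermost start (chr10:76629294-76629493): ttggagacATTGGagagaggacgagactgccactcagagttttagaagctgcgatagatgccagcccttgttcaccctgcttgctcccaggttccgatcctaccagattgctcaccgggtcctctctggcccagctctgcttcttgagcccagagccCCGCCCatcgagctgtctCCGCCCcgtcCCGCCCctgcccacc
Col25a1, upstream of the outermost start (chr3:129883589-129883788): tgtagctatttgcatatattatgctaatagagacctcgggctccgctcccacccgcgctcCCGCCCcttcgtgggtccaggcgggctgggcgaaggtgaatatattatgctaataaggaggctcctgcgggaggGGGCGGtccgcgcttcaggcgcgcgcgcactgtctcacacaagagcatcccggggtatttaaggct
Col1a1, intron near the start (chr11:94798613-94798812): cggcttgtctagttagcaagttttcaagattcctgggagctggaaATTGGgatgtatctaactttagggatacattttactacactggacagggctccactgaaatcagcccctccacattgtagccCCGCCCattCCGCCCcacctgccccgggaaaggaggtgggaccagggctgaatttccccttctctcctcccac
Col4a1 and Col4a2, shared, on the strand of Col4a2 (chr8:11313895-11314094): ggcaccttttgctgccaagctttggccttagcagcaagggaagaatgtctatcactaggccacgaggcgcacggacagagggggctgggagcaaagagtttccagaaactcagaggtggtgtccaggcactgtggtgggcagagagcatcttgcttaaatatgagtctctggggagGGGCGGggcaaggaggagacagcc
Col4a2, intron (chr8:11392889-11393088): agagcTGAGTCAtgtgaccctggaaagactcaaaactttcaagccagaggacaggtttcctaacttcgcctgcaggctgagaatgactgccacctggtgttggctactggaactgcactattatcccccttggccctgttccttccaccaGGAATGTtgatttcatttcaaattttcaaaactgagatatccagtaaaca

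Collagen genes had few windows at their starts and many in the rest of their loci. A promoter window, one that overlapped by at least 1 bp the DNA within 1 kb of any transcript start of the gene, was present at 13 of 43 collagen genes (30.2%), whereas 48.1% of all protein-coding genes had one. A locus window lay in the gene or its 10 kb flanks and outside the promoters of all protein-coding and long non-coding genes. It was present at 32 of 43 collagen genes (74.4%), beside 43.8% of all protein-coding genes. In all, 22 promoter windows and 114 locus windows were counted. Every one of the 13 genes with a promoter window also had a locus window, and 11 genes had neither. Collagen genes also differed from the rest in length and sequence. Collagen loci were long, with a median of 134 kb beside 35.4 kb for all protein-coding genes, and collagen starts were poor in CpG, with a median observed to expected CpG ratio of 0.441 beside 0.549 within 500 bp of the outermost start. All protein-coding genes were put into 10 equal bins by locus length and, apart, by CpG ratio. Genes in the same length bins had a locus window in 66.5% of cases, which would give 28.6 of 43 genes where 32 were counted. Their mean was 2.57 locus windows per gene, and the collagen mean was 2.67. Genes in the same CpG bins had a promoter window in 41.8% of cases, which would give 18.0 of 43 genes where 13 were counted. The share with a promoter window was thus below that of genes of like CpG content. The number of locus windows was close to that of genes in the same length bins. The longest bin was coarse. It ran from 126 to 4455 kb and held every type IV gene, whereas the longest collagen locus was 439 kb.

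**Figure D1:**
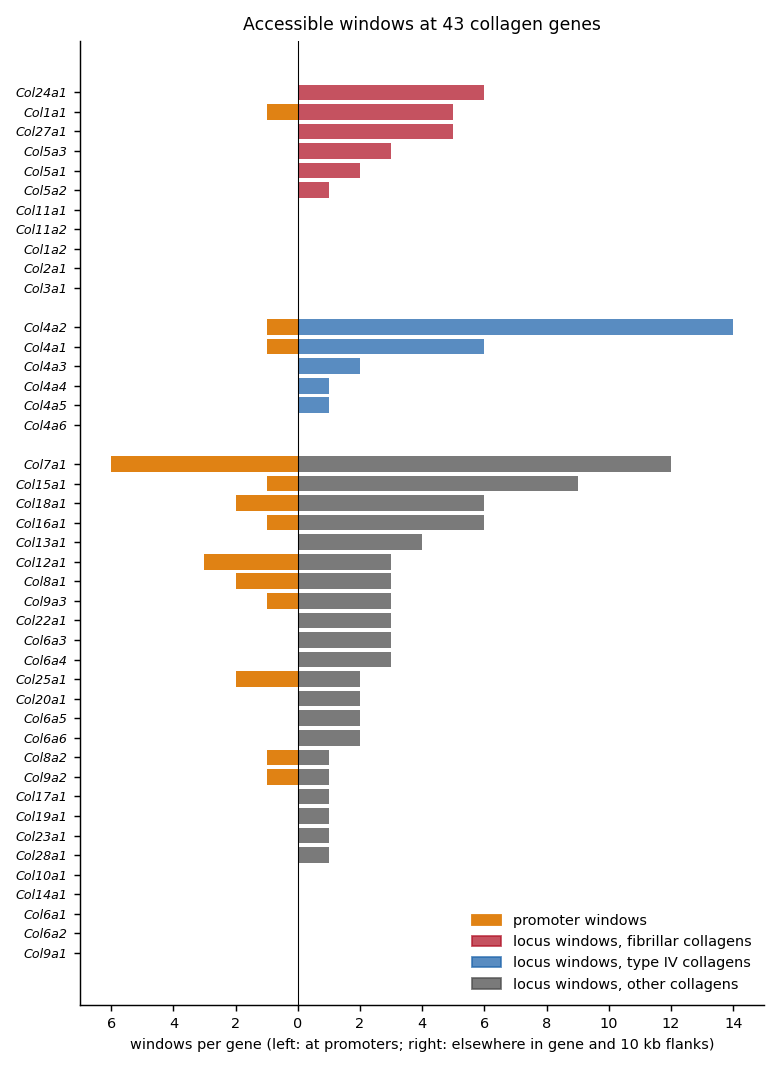
Promoter windows (left of 0, orange) and locus windows (right of 0) at each of the 43 collagen genes, in number of windows per gene, by class. Col7a1 had the most promoter windows, 6, Col4a2 had the most locus windows, 14, and 11 genes had no bar on either side.

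Among the 11 fibrillar genes, only Col1a1 had a promoter window (9.09%), and 6 genes shared out 22 locus windows. Genes of the same CpG bins would give 4.25 fibrillar genes with a promoter window, and genes of the same length bins would give 7.05 with a locus window. Col1a1 encodes the major chain of type I collagen, the main fibril of skin and bone. Its promoter window had its summit in an intron, 1.17 kb inside the outermost start and 288 bp upstream of the start of a shorter non-coding transcript. Another 5 windows lay around the gene, which gave 13.6 windows per 100 kb of locus, a higher density than 98.3% of protein-coding genes had. Of these 5, 1 lay 1.81 kb upstream of the start. The other 4 formed a run of 1.66 kb downstream of the gene, with summits 21.0 to 22.1 kb from the outermost start. In that run 3 overlapping windows came from a single peak call, so the density counts that call 3 times. The partner chain gene Col1a2 had no window of either kind. Its nearest summit lay 85354 bp from a transcript start.

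The other fibrillar genes without a window were Col2a1, the cartilage fibril gene, Col3a1, the gene of reticular fibres, and Col11a1 and Col11a2, whose chains join cartilage fibrils. Nearest summits lay 80696 bp from Col2a1, 50368 bp from Col3a1, 157282 bp from Col11a1 and 6783 bp from Col11a2. The last lay in the flank of Col11a2 but at the promoter of another gene, so it was not counted as a locus window. When only a gene's own promoter windows were left out, 33 collagen genes had a locus window, beside 54.1% of all protein-coding genes. Peak calls carry consecutive numbers along the chromosome, so calls that were made and then not kept among the 50000 can be counted. Between the listed windows on either side of its locus Col3a1 had 0 numbered calls over 136 kb. Col1a2 had 11 over 321 kb, Col2a1 had 15 over 226 kb, and Col11a1 had 12 over 691 kb, none of them kept. Col3a1 was thus in a stretch without a call, and the other 3 were in stretches where calls had been made and not kept, at positions that are not known.

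Fibrillar genes with locus windows and no promoter window were Col24a1 with 6 windows, Col27a1 with 5, Col5a3 with 3, Col5a1 with 2 and Col5a2 with 1. Col24a1 and Col27a1 encode fibrillar chains that were found late and are less abundant than type I. Type V chains, from Col5a1, Col5a2 and Col5a3, are built into type I fibrils and limit their width. Col24a1 spread its 6 windows over a 280 kb locus, from 2.54 kb upstream of the start to 248 kb inside, at 2.15 per 100 kb. Col27a1 reached 3.55 per 100 kb. Col5a3 had a pair of intronic windows 1.69 and 2.27 kb from its start, just outside the promoter limit, and a density of 4.61 per 100 kb. Col5a1 and Col5a2 were sparse, with 1.16 and 0.671 windows per 100 kb.

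The 6 type IV genes held 23 distinct locus windows, and 5 of the 6 genes had at least 1. Genes of the same length bins would give 4.70 genes with a locus window and 22.4 windows, where 24 were counted with the shared window taken once for each gene. Genes of the same CpG bins would give 3.13 genes with a promoter window, where 2 were counted. As a class type IV was thus near genes of its length bin, which ran from 126 to 4455 kb, and its windows were very unevenly divided. Col4a2 held 14, the most of any collagen gene, and Col4a1 held 6, with 1 of these counted for both genes. Col4a3 held 2, Col4a4 and Col4a5 held 1 each, and Col4a6 held none in a 329 kb locus. The chains of Col4a1 and Col4a2 make up the basement membrane network of most tissues, whereas those of Col4a3, Col4a4 and Col4a5 serve mainly the kidney glomerulus and a few other sites. Per 100 kb of locus Col4a2 had 8.95 windows and Col4a1 had 4.46, and the other 4 genes had between 0 and 1.29. More locus windows were found at Col4a2 than at 99.5% of protein-coding genes, and the 90th percentile of its length bin was 9.00 windows.

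Type IV genes lie in head-to-head pairs. Starts of Col4a1 and Col4a2 are 21 bp apart, those of Col4a3 and Col4a4 are 72 bp apart and those of Col4a5 and Col4a6 are 1309 bp apart. Of these 3 pairs, only Col4a1 and Col4a2 had a promoter window. It was a single window shared by both genes, at chr8:11313745-11314244, with its summit in an intron of Col4a2, 1189 bp from the Col4a2 start and 1168 bp from the Col4a1 start. The stretch of it printed above holds 1 GC box. It therefore lay beside the common start region rather than over it, and at the narrower limit of 500 bp neither gene had a promoter window. CpG ratios at the starts were 0.775 for Col4a1 and 0.785 for Col4a2, a range in which 78.6% of protein-coding genes had a promoter window. At the Col4a3 and Col4a4 starts they were 0.452 and 0.459.

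Inside Col4a1, 4 of the 6 locus windows stood in a run of 2.35 kb of intron, 52.6 to 54.4 kb from the start. Inside Col4a2, 3 windows stood in 1.37 kb of intron, 80.2 to 81.0 kb from the start. The first of these shared its call with the next, and it holds both an AP-1 and a TEAD word in the printed stretch. A letter on a call name shows that the caller found more than 1 summit in that call. Of the 14 Col4a2 windows 8 were of this multi-summit kind, whereas none of the Col4a1 windows was. As a class, 34.8% of type IV locus windows were multi-summit, beside 9.96% of all windows outside promoters, and all of them were at Col4a2.

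**Figure D2:**
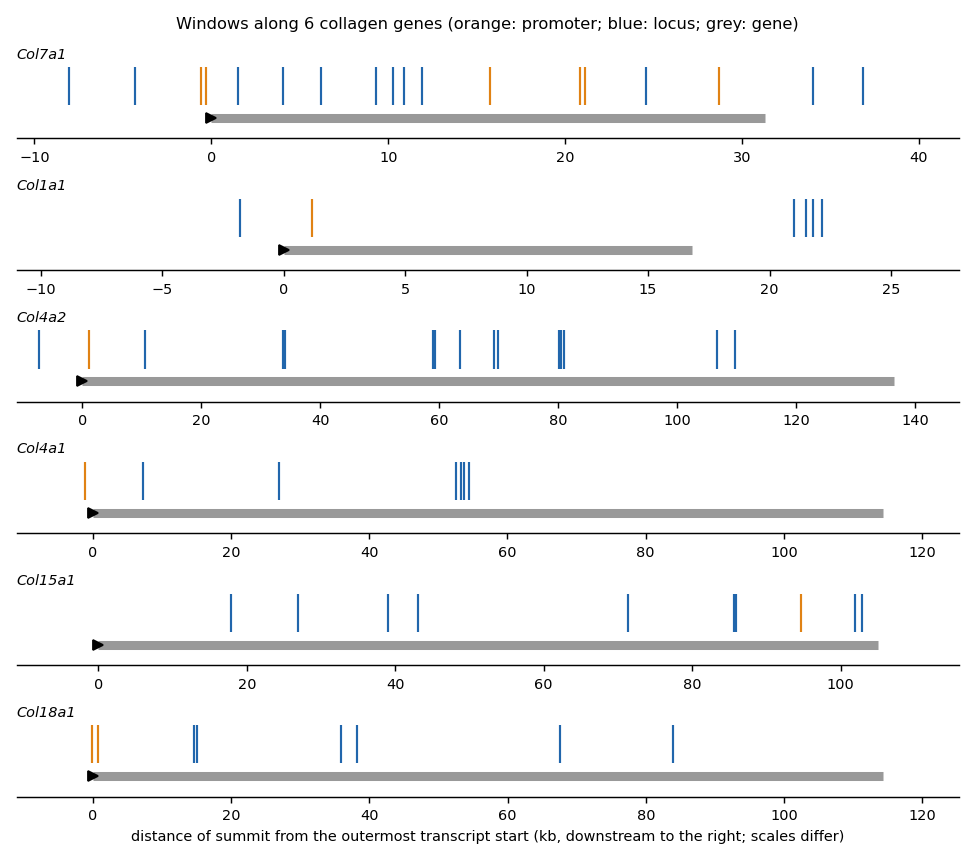
Positions of window summits along 6 collagen genes, as distance from the outermost transcript start in kb (each gene on its own scale), with promoter windows in orange, locus windows in blue and the gene in grey. Windows of Col7a1 lie along the whole gene, Col1a1 has a run of 4 downstream of the gene, and Col4a1 and Col4a2 have intronic runs of 4 and 3.

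Of the 26 genes of other types, 10 had a promoter window (38.5%) and 21 a locus window (80.8%). Genes of the same bins would give 10.6 and 16.9, and 62.6 locus windows where 69 were counted. Col7a1 had the most windows of them. It encodes the chain of anchoring fibrils, which tie the epidermal basement membrane to the dermis. It had 6 promoter windows and 12 locus windows in a locus of only 51.3 kb. Its 23.4 locus windows per 100 kb exceeded the density of 99.7% of protein-coding genes, and genes of its length had a median of 1.00 locus window and a 90th percentile of 3.00. Upstream of the outermost start, 2 promoter windows had summits 593 and 283 bp away, from a single multi-summit call. The nearer holds 1 AP-1 word and 1 CCAAT word in the printed stretch. The other 4 promoter windows lay 15.8 to 28.7 kb inside the gene, at starts of transcripts annotated as retained introns, and with starts of protein-coding transcripts only, 2 promoter windows remained. Locus windows included a run of 3 in 5.20 kb, 1.49 to 6.19 kb from the start, and a run of 4 in 3.11 kb, 9.28 to 11.9 kb from it. The 2 upstream locus windows had summits inside the neighbouring gene Uqcrc1, a respiratory chain subunit gene. Of 12 locus windows 4 held an AP-1 word.

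The multiplexins Col15a1 and Col18a1, basement membrane zone proteins of which the second is the source of endostatin, both had windows of both kinds. Col15a1 had 9 locus windows, 7.20 per 100 kb, 4 of them multi-summit. All 9 were intronic and lay 17.8 to 103 kb from the outermost start. Its single promoter window lay 94.7 kb inside the gene at an internal protein-coding start, so the outermost start had none. Col18a1 had promoter windows with summits 74 bp upstream and 744 bp downstream of its start, and the upstream stretch holds 3 GC boxes and 1 CCAAT word. Its 6 locus windows, 3 of them multi-summit, were intronic and gave 4.47 per 100 kb. When Col7a1, Col15a1, Col18a1 and Col17a1, whose products also sit at the basement membrane zone, were joined to type IV, 5 of 10 genes (50.0%) had a promoter window, close to the 48.1% of all protein-coding genes, and 9 of 10 (90.0%) had a locus window, beside 43.8% of all. The median locus of these 10 genes was 145 kb long, in a bin where 78.4% of all protein-coding genes had a locus window. These 10 genes held 51 of the 114 locus windows, at 3.31 per 100 kb, beside 1.89 for all collagen genes and 1.42 for all protein-coding genes.

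FACIT collagens, which attach to the surface of fibrils, numbered 9. Of these 4 had a promoter window (44.4%, near the 48.1% of all protein-coding genes) and 7 a locus window (77.8% beside 43.8%). Their median locus was 95.1 kb beside 35.4 kb, in a bin where 65.1% of all genes had a locus window. Col12a1, a FACIT of dense connective tissue, had 3 promoter windows, with summits 0.100, 0.782 and 1.44 kb inside the outermost start. It also had 3 locus windows. Col16a1 had 6 locus windows, 8.40 per 100 kb, and 1 promoter window at the start of a non-coding transcript 50.1 kb inside the gene. Among the cartilage type IX genes, Col9a2 had 1 window of each kind, Col9a3 had 1 promoter window at an internal start and 3 locus windows, and Col9a1 had none. One of the Col9a3 locus windows had its summit in the neighbouring gene Ogfr, an opioid growth factor receptor gene. Col22a1 had 3 locus windows, Col20a1 had 2 and Col19a1 had 1, and none of these had a promoter window. Col14a1 had no window in its 233 kb locus, although its nearest summit was 12920 bp away.

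All 4 transmembrane collagen genes had locus windows, 4 at Col13a1, 2 at Col25a1 and 1 each at Col17a1 and Col23a1, beside 43.8% of all protein-coding genes. Their loci were long, with a median of 237 kb, in a bin where 78.4% of all genes had a locus window. These loci held 0.817 windows per 100 kb beside 1.42 for all protein-coding genes. Col17a1 encodes the hemidesmosome collagen of basal epithelial cells, and its single window was intronic, 31.4 kb from the start. Col25a1, whose product was first found in amyloid plaques of the brain, was the only one with promoter windows. One had its summit 121 bp upstream of the outermost start and holds 2 GC boxes, and the other lay 296 kb inside the gene at an internal protein-coding start. Col23a1 had no promoter window at a CpG ratio of 0.874, the highest of the collagen genes.

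Type VI genes, whose chains form beaded microfibrils, had no promoter window at any of 6 genes. Col6a3 and Col6a4 had 3 locus windows each, Col6a5 and Col6a6 had 2 each, and the neighbouring Col6a1 and Col6a2 had none. The starts of type VI genes were CpG-poor, with a median ratio of 0.284, in a bin where 24.7% of all protein-coding genes had a promoter window. The share of type VI genes with a locus window was 66.7% beside 43.8% of all. Their median locus was 111 kb beside 35.4 kb, in a bin where 65.1% of all genes had a locus window. Of the short-chain genes, Col8a1 and Col8a2, which encode the type VIII network of vessel walls and the cornea, had 2 and 1 promoter windows. The summits at Col8a1 were 70 bp inside and 583 bp upstream of its only start, and the window at Col8a2 was 15.0 kb inside the gene. Col8a1 had 3 locus windows and Col8a2 had 1. Col10a1, made by hypertrophic cartilage, had neither kind in a locus of 27.1 kb. Col28a1, a gene related to the type VI genes, had 1 intronic window in 215 kb.

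**Figure D3:**
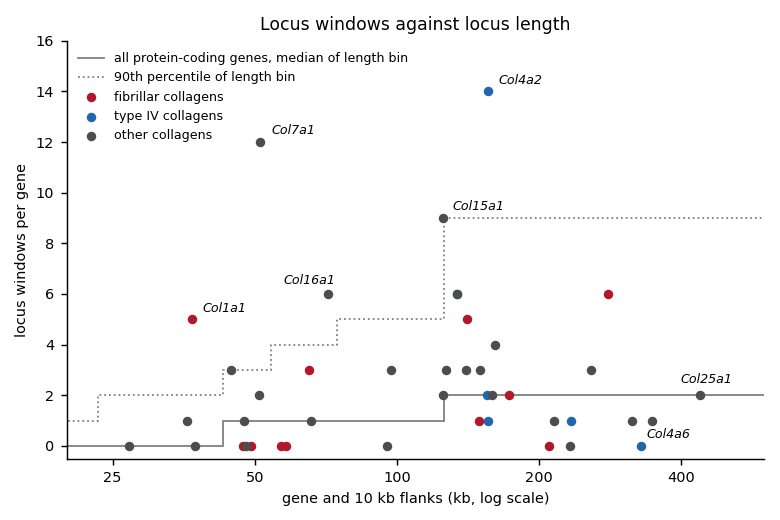
Number of locus windows against the length of the gene and its 10 kb flanks (log scale) for the 43 collagen genes, with the median (solid) and 90th percentile (dotted) of all protein-coding genes in each of 10 bins by length. Of the 43 genes 20 lie above the median of their bin and 5 lie above its 90th percentile, namely Col4a2, Col7a1, Col15a1, Col1a1 and Col16a1.

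A promoter window did not always lie at the main start. In 9 of the 13 genes a window lay at the outermost start, and in Col15a1, Col16a1, Col8a2 and Col9a3 windows lay only at internal starts. Of all protein-coding genes, 44.9% had a window at the outermost start and 48.1% at any start. With protein-coding transcript starts alone 11 genes had a promoter window, and Col16a1 and Col9a3 lost theirs, while the share of all protein-coding genes was 47.2%. The limit itself fell between close values. The summits of windows counted at Col4a1, Col4a2 and Col8a2 lay 1168, 1189 and 1224 bp from a start, and among genes without a promoter window the nearest summits lay 1251 bp from Col20a1, 1644 bp from Col6a3 and 1686 bp from Col5a3. At genes that had a promoter window, further summits just outside the limit lay 1299 bp from a start of Col16a1, 1323 bp from one of Col9a2 and 1326 bp from one of Col7a1.

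Position within the genome moved with the counts as well. Chromosomes 1 and 10 to 13 were set apart because they were known to have few calls, so their lower retention is no independent result. Chromosomes 1 and 10 to 13 kept 29.6% of their numbered calls in the list, and the other chromosomes kept 41.3%. On the former 2 of 14 collagen genes (14.3%) had a promoter window and 9 had a locus window, whereas on the other chromosomes 11 of 29 (37.9%) and 23 did. Shares of all protein-coding genes with a promoter window were 49.2% and 47.8% on the same chromosomes, and with a locus window 40.2% and 45.0%. The part of call retention in the collagen counts was not tested.

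By annotation, 89 of the 114 locus windows had their summit in an intron of the collagen gene (78.1%). Of the others 10 lay downstream, 7 upstream, 5 in a coding exon, 2 in an untranslated region and 1 in another exon. Of the 22 promoter windows, 10 were intronic and 6 upstream of the gene. Such shares were not counted for all protein-coding genes, whose loci were shorter, so they cannot be called particular to collagen genes. Windows shared by Col4a1 and Col4a2 were placed by their position in Col4a1, so the shared promoter window, intronic in Col4a2, is among the upstream ones. Multi-summit calls made up 9.09% of collagen promoter windows and 33.0% of all promoter windows, and 17.5% of collagen locus windows beside 9.96% of all windows outside promoters. Those at locus windows came from 5 genes, with 8 at Col4a2, 4 at Col15a1, 3 each at Col18a1 and Col1a1 and 2 at Col16a1. Median GC content was 54.8% in collagen promoter windows and 59.2% in all promoter windows. In windows outside promoters it was 51.1% at collagen loci and 48.8% in all.

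Consensus words were searched as exact letters on both strands of each 500 bp window. The AP-1 word TGACTCA was held by 30 of 114 locus windows (26.3%) in 17 genes, beside 25.8% of all windows outside promoters. The TEAD word GGAATGT was held by 16 (14.0%) beside 9.22%, the RUNX word TGTGGTT by 14 (12.3%) beside 13.8%, and the ETS word GAGGAAGT by 7 (6.14%) beside 4.92%. The HIF word TACGTG was held by 2 (1.75%) beside 5.58%. CCAAT was held by 42.1% beside 46.8%, and GGGCGG by 11.4% beside 13.6%. The palindromes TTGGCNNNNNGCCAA (NFI) and AACCGGTT (GRHL) were found in none of the collagen windows, beside 0.118% and 0.196% of all windows outside promoters. Among the 22 promoter windows, 10 held GGGCGG (45.5%) beside 62.5% of all promoter windows, 13 held CCAAT (59.1%) beside 45.1%, and 2 held TGACTCA (9.09%) beside 9.21%. Windows of multi-summit calls and of neighbouring calls can overlap, so that 1 word may be counted in both. AP-1 shares of collagen windows were near those of all windows, and the other differences rest on few windows.

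**Figure D4:**
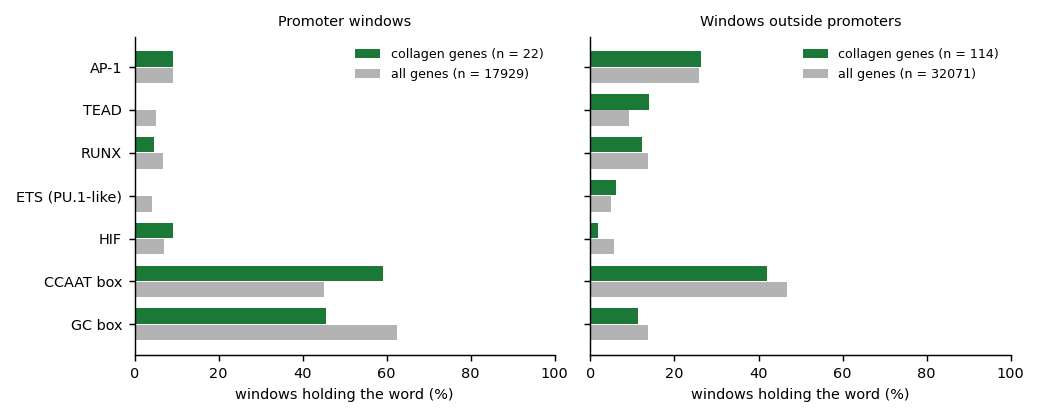
Percentage of 500 bp windows that hold each consensus word, for collagen windows (green) and all windows of the same kind (grey), at promoters (left) and outside them (right). The AP-1 bars are nearly equal in both panels, and the GC box bar at promoters is 45.5% for collagen genes and 62.5% for all.

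Genes that act on collagen were counted in the same way, from lists that are no members. Of 49 genes listed for collagen synthesis, assembly, binding and cleavage 48 were found in the annotation. Of these, 27 (56.2%) had a promoter window and 34 (70.8%) a locus window, beside 48.1% and 43.8% of all protein-coding genes. Their median CpG ratio was 0.568, in a bin where 63.1% of all genes had a promoter window. Their median locus was 45.8 kb, in a bin where 50.1% had a locus window. Genes for the hydroxylation of collagen prolines and lysines, which include the helper genes Crtap and Ppib, had the highest share of promoter windows among these lists, 10 of 12 genes (83.3%). Their median CpG ratio was 0.783, in a bin where 78.6% of all protein-coding genes had a promoter window. The exceptions P4ha2 and P4ha3, catalytic subunits of prolyl 4-hydroxylase, had no window of either kind. Of the hydroxylation genes, Plod2, a lysyl hydroxylase, had 3 promoter windows and 1 locus window. The prolyl 3-hydroxylase genes Leprel1 and Leprel2 each had 1 promoter window and 3 locus windows. Of the genes for glycosylation, folding and export 3 of 6 (50.0%) had a promoter window. There were 2 at the galactosyltransferase gene Glt25d1, 2 at Serpinh1, the collagen chaperone HSP47, and 2 at Fkbp14. The median CpG ratio of all 6 genes was 0.396, in a bin where 24.7% of all protein-coding genes had a promoter window. Among them Fkbp10 and Glt25d2 had no window.

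Of the 8 procollagen processing genes 4 (50.0%) had a promoter window and 6 (75.0%) a locus window, beside 48.1% and 43.8% of all protein-coding genes. Their median locus was 120 kb beside 35.4 kb, in a bin where 65.1% of all genes had a locus window. Bmp1, the C-propeptidase, had 1 promoter window and 5 locus windows, and Adamts3 and Tll2 had none. Of the 5 lysyl oxidase genes, which crosslink the fibrils, 3 (60.0%) had a promoter window. Their median CpG ratio was 0.515, in a bin where 43.7% of all genes had one. Loxl2 had 1 promoter window and 6 locus windows, and Lox had no window of either kind. All 10 collagen receptor genes had a locus window and 5 (50.0%) had a promoter window. Their median CpG ratio was 0.416, in a bin where 43.7% of all genes had a promoter window. Their median locus was 77.3 kb, in a bin where 65.1% of all protein-coding genes had a locus window. The discoidin receptor gene Ddr2 had 4 promoter and 2 locus windows, Itgb1, the shared beta chain of collagen-binding integrins, had 3 of each, and Ddr1 had 2 of each. Of 7 collagen-cleaving protease genes 2 (28.6%) had a promoter window. Their median CpG ratio was 0.220, in a bin where 17.7% of all genes had one. Mmp2 had 6 locus windows and no promoter window, Mmp14 had 1 promoter and 4 locus windows, and Ctsk, Mmp1a and Mmp8 had none.

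The non-collagen components of basement membranes were counted apart. Of these 15 genes 8 had a promoter window (53.3%) and 14 a locus window (93.3%), beside 48.1% and 43.8% of all protein-coding genes. Their median locus was 84.4 kb, in a bin where 65.1% of all genes had a locus window. In all, 54 locus windows gave 2.54 per 100 kb, beside 1.42 for all protein-coding genes. Lama5, the laminin alpha chain of many epithelia, had 12 locus windows, 17.3 per 100 kb. Hspg2, which encodes perlecan, had 6. Lama1 had no window. Marker genes of cell types were counted too, although a pooled list cannot check the label of any cell. All 5 epithelial marker genes had promoter windows, beside 48.1% of all protein-coding genes. Of 6 leukocyte markers 3 (50.0%, near that share) had one, and Ptprc, which encodes CD45, had none at its promoter and 3 in its locus. Of 8 fibroblast markers 3 (37.5%) had a promoter window, namely Pdgfra, Fap and Twist1, while Dcn, Lum and Acta2 had no window of either kind. Of 5 endothelial markers only Vwf had a promoter window. Beside 43.8% of all protein-coding genes, locus windows were present at 5 of 5 epithelial, 5 of 6 leukocyte, 3 of 8 fibroblast and 4 of 5 endothelial markers. Of the 15 endothelial locus windows 10 were at Vwf. The part of any such cell type in the collagen counts was not tested.

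**Figure D5:**
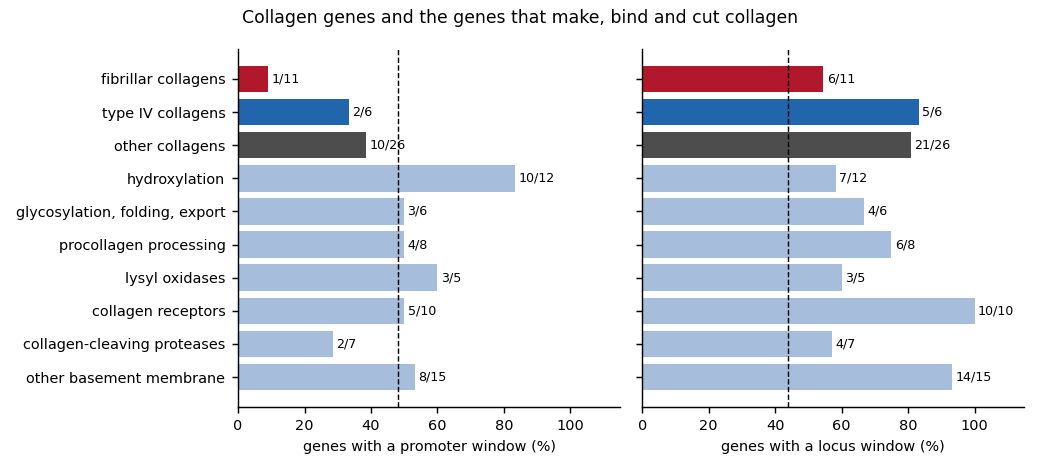
Percentage of genes with a promoter window (left) and with a locus window (right) in the 3 collagen classes and in 7 lists of related genes, with the number of genes beside each bar and dashed lines at 48.1% and 43.8% for all protein-coding genes. Fibrillar collagens have the shortest promoter bar, 1 of 11, and all 10 receptor genes have a locus window.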

How the data were processed

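According to the methods and the submitters' processing notes, adapters were trimmed and reads aligned by Bowtie2 2.1.0 (mm9). Mitochondrial reads, duplicates (found by Picard 1.79) and reads of low quality were dropped. The authors called summits on aggregated cells by MACS2, version not given in the sources used here, and kept the 50000 windows of 500 bp with the least q-values. The deposited values are the start and end positions of windows with call names, without count or score, so that depth is unknown and no window can be weighed. Windows were matched to GENCODE vM1 models on mm9, with 0 windows past a chromosome end, in Python 3.11.15 (pandas 2.3.3, numpy 2.4.6, pysam 0.24.0), and the counting was tested on made-up data with known answers. Bins hold all 22350 protein-coding genes. A run is at least 3 windows with starts within 3 kb.

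Members, lists and words were chosen with earlier results of these data known. Every collagen gene is named, and of each other list the 3 genes with the most windows (ties by name) and any without a window could be named. Other genes, and the runs, were named after their values were seen. Mia3 had no match. The values of 1 listed gene and the sequence of 1 window are not reported here.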

Additional observations from a re-analysis of the deposited data

How the results depend on the processing

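Of 38 alternative values, 32 stayed within 1.5 times the reported count and 6 moved further. Those that stayed include, for each count, a widened type IV class. It only moves genes between classes and cannot change a count over all 43 genes. With multi-summit windows only, 1 collagen gene had a promoter window (13.0% of all protein-coding genes) and 5 had a locus window (4.80%), with 2 promoter and 20 locus windows. Promoter windows numbered 38 at a limit of 2.5 kb and 12 at the outermost start only. Genes with a promoter window ranged from 9 at 500 bp (46.3% of all) to 17 at 2.5 kb (51.3%), apart from multi-summit windows. Genes with a locus window numbered 31 in the gene body alone (27.4% of all) and 36 with 50 kb flanks (71.1%). Without Col4a1 and Col4a2, and with protein-coding starts only, alternatives chosen after seeing the data, 11 genes had a promoter window. No paired analysis was possible because the windows form 1 pooled list. Depth per window is unknown, so a gene without a window may hold calls that were not kept.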
